A study of Mus musculus with 17 samples.

Results

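The regions described here carried peaks of histone H3 acetylated on lysine 56 (H3K56ac) in mouse embryonic stem cells that lacked Sirt6 (KO), before and after retinoic acid (RA). Peaks of the untreated KO list and of the RA-treated KO list were merged where they overlapped by at least 1 bp, which gave 2891 regions. The 8 acetylation lists of the series together merged to 6400 regions. A region in the RA list alone is called gained, one in the untreated list alone lost, and one in both kept. These names refer to peak calls, not to measured changes of the mark.

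The series applied chromatin immunoprecipitation with sequencing (ChIP-seq) for H3K56ac and H3K9ac to Sirt6 KO and wild-type (WT) cells of strain 129, untreated and after RA. Untreated cells were kept on irradiated feeder fibroblasts with leukemia inhibitory factor (LIF), and feeders were removed by a short plating step. RA cells were moved to medium without LIF, received RA from a 0.01 M stock diluted 10000-fold for 2 days, and were harvested 1 day after its removal. RA, its solvent, withdrawal of LIF and time in culture therefore cannot be told apart. Each combination of genotype, mark and treatment had 1 library, so no comparison below has a replicate check and no p-value is given. How many KO clones were used is not stated in the labels.

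Sirt6 is a NAD-dependent deacetylase whose histone substrates include acetylated lysines 9 and 56 of H3. H3K56 lies near the point where DNA enters and leaves the nucleosome, and its acetylation is associated with newly deposited histones and with active promoters and enhancers in embryonic stem cells. RA binds nuclear receptors that sit on DNA and is widely used to drive these cells out of pluripotency, mostly toward neural fates.

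The untreated KO library held 5782181 tags after filtering and 2235 peaks, and the RA library 6837952 tags and 2239 peaks. The fragment length estimated by the peak caller was 224 and 227 bp. Peak height is the authors' pileup, the number of extended tags over the summit, and is given as scaled pileup, per 1000000 filtered tags, where libraries are compared. The authors called peaks in each library without a control, so stretches that collect reads in any library stay in the lists. Only 1 tag per position was kept, which limits the pileup to 448 in the untreated list and 454 in the RA list, and both lists reached their limit.

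KO cells had about as many H3K56ac peaks after RA as before, but not all at the same places. Of the 2891 regions, 662 were gained, which is 22.9%, and 656 were lost, which is 22.7%. The other 1573 regions were kept, which is 54.4% (95% Wilson interval 52.6 to 56.2%). Intervals of shares, differences and ratios cover counting error only. Those of medians reflect the spread across regions of the same libraries and treat regions as independent. No interval covers variation between cultures or libraries. The ratio of gained to lost regions was 1.01 (exact interval 0.904 to 1.13). This balance changed with the calls taken: limited to peaks with a −log10 q of at least 10, the ratio was 2.00 (453 gained and 227 lost), and outside the Sirt6 peaks described below the counts were 616 gained and 291 lost. At the q limit, a region kept among all calls counted as gained or lost if its peak passed in 1 list only. Kept regions then numbered 1305. The RA library was also deeper, and the part of depth in this ratio was not tested. Among all calls, gained regions covered 168 kb, lost regions 172 kb and kept regions 543 kb.

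Gained and lost regions were the low peaks of their lists. Lost regions had a median pileup of 14 in the untreated library and a median fold enrichment over local background of 6.65. Gained regions had a median pileup of 15 in the RA library and a median fold enrichment of 8.19. Kept regions had a median pileup of 25 before and 30 after RA, with fold enrichments of 12.4 and 13.3. The share of peaks kept climbed with fold enrichment in both lists. Of untreated peaks, 24.2% were kept in the lowest fold quartile, 67.1% in the next, 91.8% in the third and 99.6% in the highest. Of RA peaks, the shares were 40.2%, 52.5%, 89.3% and 99.8%.

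**Figure D1:**
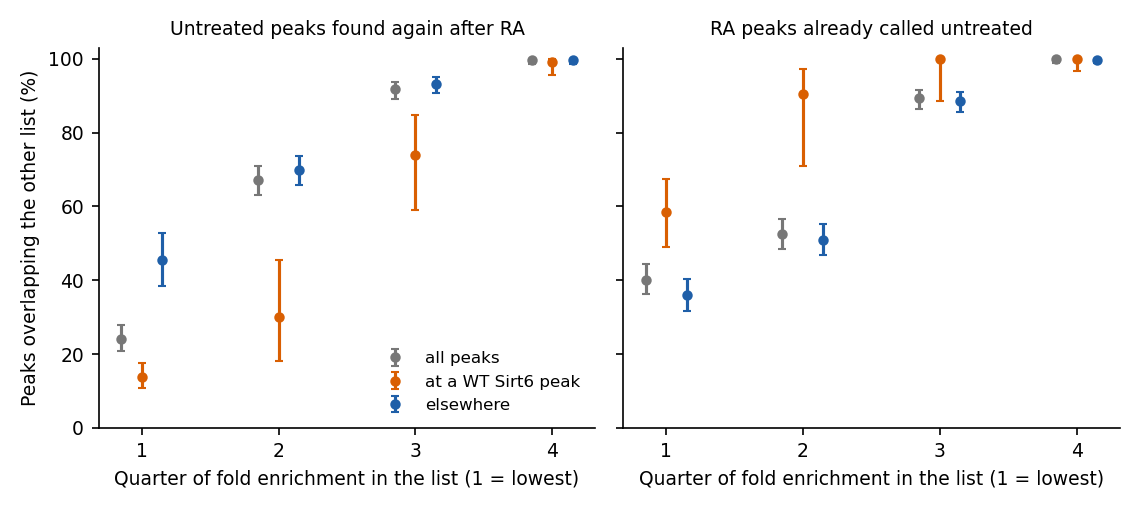
Share of peaks (%) that overlapped the other KO H3K56ac list, by quartile of fold enrichment, for untreated peaks (left) and RA peaks (right); bars are 95% Wilson intervals. Untreated peaks at a WT Sirt6 peak lie below the others in the lowest quartile (13.8% against 45.6%), whereas RA peaks at a WT Sirt6 peak lie above them (58.5% against 35.9%).

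Most lost and gained calls could not be separated from the other library by counting error. The pileup of each region was scaled to the depth of the other library and set against the smallest p-value called there, with the local background scaled alike. At the scaled pileup itself, all 656 lost and 655 of 662 gained regions would have been called. At the lower 95% Poisson limit of the pileup, only 206 lost regions (31.4%) and 195 gained regions (29.5%) would have been called. Among lost regions this count was 48 of 365 at WT Sirt6 peaks and 158 of 291 elsewhere.

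The lost regions lay at Sirt6 sites far more often than the gained ones. Sirt6 was mapped in untreated WT cells, where the authors called 14510 peaks. That library held 2008232 filtered tags. The 2 Sirt6 libraries of KO cells, with 40006795 and 48956556 filtered tags, held 0 peaks, and they are not matched to the WT library in depth. A WT Sirt6 peak overlapped 365 of 656 lost regions (55.6%, 51.8 to 59.4%), 46 of 662 gained regions (6.95%, 5.25 to 9.14%) and 222 of 1573 kept regions (14.1%, 12.5 to 15.9%). The difference between lost and gained regions was 48.7 percentage points (Newcombe interval 44.3 to 52.8).

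Strength of the call altered these shares. Lost and gained regions were banded by the fold enrichment in their own list, and kept regions by the lower of their untreated and RA values. Below a fold enrichment of 8, the share at Sirt6 peaks was 71.2% of 476 lost, 15.7% of 274 gained and 23.7% of 262 kept regions. Between 8 and 12 it was 13.3% of 173 lost, 0.829% of 362 gained and 4.32% of 579 kept regions. At 12 or more only 7 lost regions remained, 3 of them at Sirt6 peaks (42.9%), against 0 of 26 gained and 135 of 732 kept regions (18.4%, 15.8 to 21.4%). When every list was limited to peaks with a −log10 q of at least 10, 11.9% of lost, 1.10% of gained and 13.1% of kept regions lay at Sirt6 peaks. At that limit lost and kept regions had similar shares, and the difference between lost and gained regions was 10.8 points. Lost regions thus exceeded gained ones at Sirt6 sites in every fold band, by 55.5 points below 8 (lower limit 49.1), 12.5 points between 8 and 12 (lower limit 7.91) and 42.9 points at 12 or more (lower limit 12.9). Of the 365 lost regions at Sirt6 peaks, 339 were in the lowest band.

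Lost peaks at Sirt6 sites sat on broadly raised signal, which restates their low fold enrichment. The tags in the 10 kb around each summit were recovered from the deposited fold enrichment and pileup. At like pileups, a lower fold enrichment therefore gives more tags. Lost regions at Sirt6 peaks and elsewhere had median pileups of 15 and 14 and median fold enrichments of 6.05 and 8.14. The recovered tags came out as whole numbers within 0.05 tags for every peak above the genome-wide background, which is 30.9 tags in the untreated and 36.6 tags in the RA library. Lost regions at Sirt6 peaks had a median of 66 tags in 10 kb, and the summit pileup equalled 21.1% of them. Lost regions elsewhere had a median of 33 tags, close to background, and a summit share of 38.8%. Gained regions at Sirt6 peaks resembled the first kind, with 63 tags and 21.6%. Of the 616 gained regions elsewhere, 346 (56.2%) were at the genome-wide background, so that their median of 36.6 tags is an upper bound. Sirt6 peaks that overlapped lost regions were also long, with a median of 590 bp (fold enrichment 11.3). Those at gained regions had a median of 660 bp (fold enrichment 12.1), those at kept regions 283 bp (fold enrichment 7.93) and all Sirt6 peaks 384 bp (fold enrichment 8.08).

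**Figure D2:**
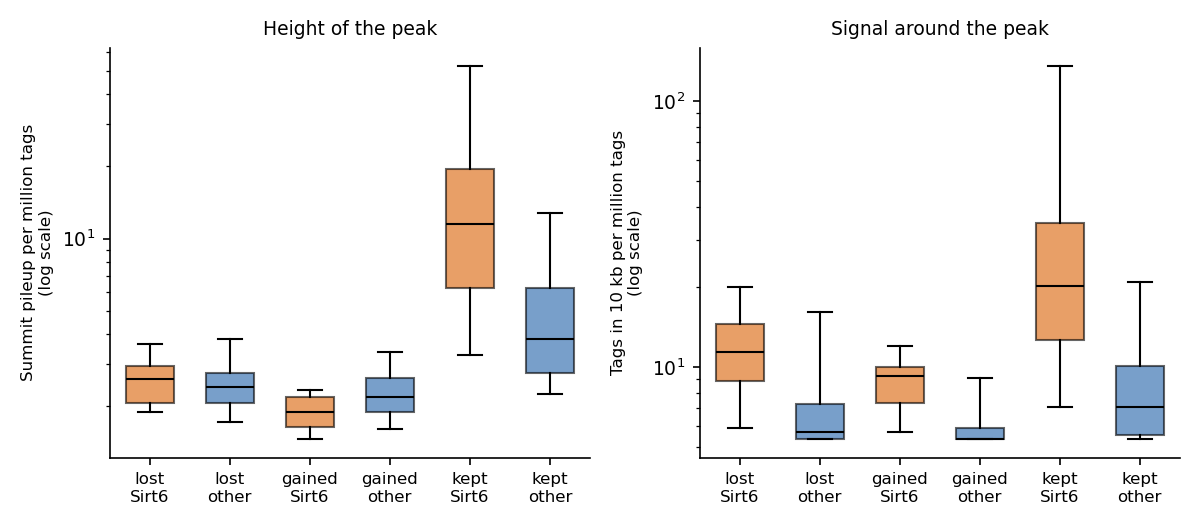
Summit pileup (left) and tags in the 10 kb around the summit (right), both per 1000000 filtered tags on log axes, in KO H3K56ac regions that overlap a WT Sirt6 peak (orange, Sirt6) or not (blue, other); lost and kept regions use the untreated library and gained regions the RA library. Boxes are quartiles with the median and whiskers the 5th and 95th percentiles; values at the lower edge on the right are upper bounds set by the genome-wide background. Lost regions at Sirt6 peaks have summits as low as the other lost regions (medians 2.59 and 2.42) but about 2-fold the surrounding tags (11.4 and 5.71).

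Within kept regions the scaled pileup was on balance level. A rise or fall of the mark shared by the whole genome would not show after scaling to filtered tags. Without scaling to depth, the median log2 pileup ratio was 0.23. The median log2 ratio of scaled pileup, RA over untreated, was −0.01 (interval −0.04 to 0.01), with quartiles of −0.28 and 0.24 and extremes of −2.02 and 1.23. At least 1.5-fold higher pileup after RA was found in 90 of 1573 kept regions (5.72%) and at least 1.5-fold lower pileup in 172 (10.9%). Past 2-fold, the counts were 5 higher and 50 lower. The median log2 ratio of fold enrichment was 0.05 (0.04 to 0.07). Regions were called a median of 8 bp longer after RA (6 to 9 bp), from a median of 294 bp to 303 bp. The estimated fragment lengths were 224 bp before and 227 bp after RA. The part of fragment length and depth in the longer calls was not tested. Summits of the 2 lists lay a median of 16 bp apart, and 85.1% lay within 50 bp. Across the 1573 regions, log2 scaled pileup in the 2 libraries had a Pearson r of 0.898 and scaled pileup a Spearman rho of 0.855, a description of regions that share 2 libraries.

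Kept regions at Sirt6 sites had lower scaled pileup after RA, while the others were close to level. In the 222 kept regions at WT Sirt6 peaks, the median scaled pileup was 11.5 before and 8.85 after RA, and the median log2 ratio was −0.43 (−0.52 to −0.27). In the 1351 kept regions elsewhere the medians were 3.80 and 4.09, and the median log2 ratio was 0.04 (0.01 to 0.06). Scaled pileup was lower after RA in 185 of the 222 regions at Sirt6 peaks and in 624 of the 1351 others. It was at least 1.5-fold lower in 85 regions at Sirt6 peaks (38.3%, 32.1 to 44.8%) and in 87 elsewhere (6.44%, 5.25 to 7.88%). Only 1 region at a Sirt6 peak was at least 1.5-fold higher, against 89 elsewhere. Fold enrichment, which sets the summit against its own surroundings, differed less: its median log2 ratio was −0.09 (−0.16 to −0.07) at Sirt6 peaks and 0.09 (0.07 to 0.11) elsewhere. This split was made after the values of the kept regions had been seen.

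**Figure D3:**
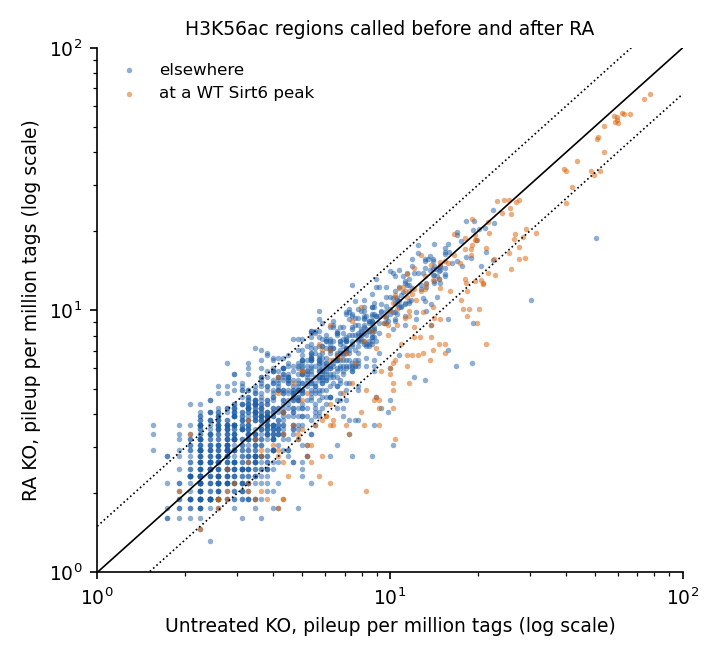
Pileup per 1000000 filtered tags in the 1573 kept H3K56ac regions of KO cells, untreated (horizontal) and after RA (vertical), on log axes; each point is a region, orange where it overlaps a WT Sirt6 peak. The solid line marks equal values and the dotted lines a 1.5-fold difference; 85 of 222 orange points and 87 of 1351 blue points lie on or below the lower dotted line.

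Kept regions at Sirt6 peaks were also tall. Only 2 kept regions reached 90% of the pileup that 1 tag per position allows, and 84 reached 25% of it, 62 of them at Sirt6 peaks. Without these 84 regions, the difference between the medians at Sirt6 peaks and elsewhere was −0.51, against −0.47 with them. In quartiles of mean scaled pileup, the median log2 ratio at Sirt6 peaks was −0.56 (19 regions), −0.58 (23), −0.61 (38) and −0.23 (142, the tallest). Elsewhere it was −0.04, 0.12, 0.04 and 0.05. Lower pileup at Sirt6 peaks was thus present at every height, and smallest among the tallest. The tags in 10 kb gave the same direction with a smaller size, a median log2 ratio of −0.22 (−0.37 to −0.15) at Sirt6 peaks and 0.03 (0.02 to 0.05) elsewhere.

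The same split was read in the other marks and genotypes, each with its own kept regions. For H3K9ac in KO cells, the median log2 ratio was −0.79 (−0.97 to −0.58) in 223 regions at Sirt6 peaks and −0.03 in 1790 others. At least 1.5-fold lower H3K9ac was found in 125 of the 223, where the share over all 2013 kept regions was 13.8%. For H3K56ac in WT cells, which have Sirt6, the median was 0.32 (0.22 to 0.40) in 185 regions at Sirt6 peaks and 0.13 (0.08 to 0.17) in 1396 others. There, 48 of the 185 were at least 1.5-fold higher and 17 at least 1.5-fold lower, where the shares over all 1581 kept regions were 21.3% and 10.8%. For H3K9ac in WT cells it was 0.27 (0.18 to 0.36) in 145 regions, of which 46 were at least 1.5-fold higher (17.6% over all kept regions), and −0.01 in 1671 others. By scaled pileup, both marks were thus lower at Sirt6 sites after RA in KO cells and higher in WT cells. Fold enrichment did not show this contrast for H3K56ac: its median log2 ratio at Sirt6 peaks was −0.09 in KO and −0.10 (−0.16 to −0.05) in WT cells. Elsewhere it was 0.09 in KO and −0.19 (−0.21 to −0.16) in WT cells, so that Sirt6 sites lay below the other regions in KO and above them in WT cells. For H3K9ac, the median log2 ratio of fold enrichment at Sirt6 peaks was −0.17 (−0.21 to −0.11) in KO and 0.02 (−0.04 to 0.05) in WT cells, against 0.16 and −0.13 elsewhere. Fold enrichment is not scaled to depth. For H3K56ac, filtered tags rose from 5782181 to 6837952 in KO cells and fell from 7790807 to 6145525 in WT cells. The part of depth in fold enrichment was not tested. Fragment lengths of the untreated WT libraries, 175 bp for H3K56ac and 155 bp for H3K9ac, were shorter than those of the RA libraries, 207 and 198 bp. A longer fragment raises the pileup, and its part in the WT values was not tested. The KO fragment lengths were 224 and 227 bp for H3K56ac and 212 and 204 bp for H3K9ac.

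**Figure D4:**
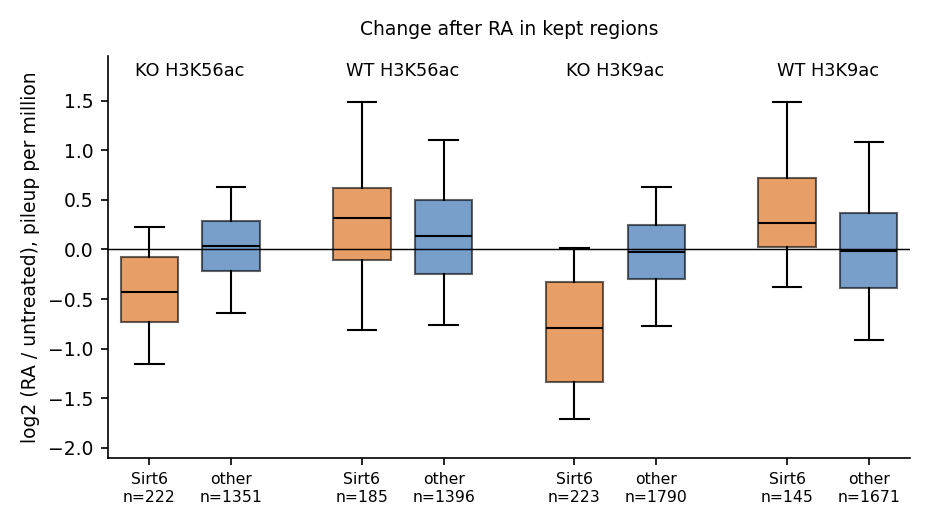
Log2 ratio of scaled pileup, RA over untreated, in kept regions that overlap a WT Sirt6 peak (orange, Sirt6) or not (blue, other), for both marks and genotypes; boxes are quartiles with the median, whiskers the 5th and 95th percentiles, n counts regions. At Sirt6 peaks the medians are −0.43 and −0.79 in KO cells and 0.32 and 0.27 in WT cells.

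The opposite medians of scaled pileup were also seen in identical regions. A total of 1164 regions were called for H3K56ac in both genotypes and both conditions. The 172 of them at Sirt6 peaks had a median log2 ratio of −0.27 in KO and 0.32 in WT cells, and 92 (53.5%) were lower in KO and higher in WT. The 992 elsewhere had medians of 0.07 and 0.21, and 251 of them (25.3%) were lower in KO and higher in WT, where the share over all 1164 was 29.5%. The log2 ratios of the 2 genotypes had a Pearson r of 0.38 across the 172 regions and 0.04 across the 992, a description of regions that share 4 libraries. Regions at Sirt6 peaks that were lower than others in KO cells thus tended to be lower than others in WT cells too. Of the KO regions called for H3K56ac and H3K9ac in both conditions, 192 lay at Sirt6 peaks, and 152 of these (79.2%) were lower for both marks. Elsewhere 303 of 1198 (25.3%) were, and over all 1390 such regions 32.7%. Across those 192 regions the log2 ratios of the 2 marks had a Pearson r of 0.81, against 0.27 across 1198 regions elsewhere. Among all kept KO H3K56ac regions, those at Sirt6 peaks were taller (median untreated pileup 66.5, against 22 elsewhere). The part of height in the correlations between genotypes and between marks was not tested. The 2 marks come from separate libraries, and whether the cultures were shared is not stated.

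Regions found in every acetylation list made up much of the kept set, and the difference at Sirt6 sites was larger without them. All 8 lists called 995 of the 1573 kept regions (63.3%). In kept regions outside that group, the median log2 ratio was −0.62 (−0.74 to −0.53) in 86 regions at Sirt6 peaks and −0.04 (−0.10 to −0.01) in 492 elsewhere. For H3K9ac in WT cells only 10 such regions lay at Sirt6 peaks, with a median of −0.10, so its higher value rested on regions called in all lists. For H3K56ac in WT cells the median stayed at 0.37 in 50 such regions. Kept regions at Sirt6 peaks included stretches near the start of chromosome 9 with extreme coverage. The region chr9:3034865-3035284 (mm9) had a pileup of 346 before and 373 after RA and about 9687 tags in 10 kb before RA, with a fold enrichment of only 1.59 before and 1.54 after.

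Gained regions were called in WT cells more often than lost regions were. Of 662 gained regions, 324 (48.9%) were called in untreated WT cells for H3K56ac and 291 (44.0%) in RA-treated WT cells. Of 656 lost regions, these counts were 120 (18.3%) and 78 (11.9%). Kept regions were called in WT cells more often than either class, 1251 of 1573 (79.5%) untreated and 1355 (86.1%) after RA. The difference in share between gained and lost regions was 30.6 points (25.7 to 35.4) in untreated and 32.1 points (27.5 to 36.5) in RA-treated WT cells. Outside Sirt6 peaks, which overlapped far more lost than gained regions, these differences were smaller, 22.3 points (15.5 to 28.6) and 25.6 points (19.3 to 31.5). Of the gained regions, 87 (13.1%, 10.8 to 15.9%) were called in WT after RA and not before, close to the 192 of 1573 kept regions (12.2%, 10.7 to 13.9%) with that pattern. A further 204 gained regions were called in both WT lists and 251 in neither.

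Over each class as a whole, H3K9ac calls in KO cells moved the same way as the H3K56ac calls, but not in gained regions at Sirt6 peaks. Gained regions carried an H3K9ac call in 348 cases (52.6%) before RA and in 448 (67.7%) after. Lost regions carried one in 269 cases (41.0%) before and in 125 (19.1%) after. Kept regions carried one more often than either class, in 1474 cases (93.7%) before and 1445 (91.9%) after. The KO H3K9ac library held 7217855 filtered tags and 3593 peaks before RA, and 10250030 tags and 3147 peaks after. The part of depth in these calls was not tested. Lost regions at Sirt6 peaks went from 140 of 365 (38.4%) before RA to 11 (3.01%) after, while those elsewhere went from 129 of 291 (44.3%) to 114 (39.2%). Gained regions at Sirt6 peaks went the other way from their H3K56ac call, from 19 of 46 with an H3K9ac call (41.3%, 28.3 to 55.7%) before RA to 7 (15.2%, 7.57 to 28.2%) after, while gained regions elsewhere went from 329 of 616 (53.4%) to 441 (71.6%). H3K9ac calls were thus also missing after RA at most lost regions at Sirt6 peaks that had one before. In WT cells, H3K9ac was called in 2 (0.548%) and 3 (0.822%) of the 365, untreated and after RA.

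Over all lists, 313 lost regions (47.7%) and 111 gained regions (16.8%) were called in no list but their own. At Sirt6 peaks these shares were 57.0% (51.9 to 62.0%) of lost and 43.5% (30.2 to 57.8%) of gained regions, with overlapping intervals. Elsewhere they were 36.1% (30.8 to 41.7%) and 14.8% (12.2 to 17.8%). At the other end, 127 gained regions (19.2%) were called in the other 6 acetylation lists and missed only in the untreated KO H3K56ac list. The same held for 27 lost regions (4.12%) and the RA list. None of the 46 gained regions at Sirt6 peaks was among the 127, and 1 of the 365 lost regions at Sirt6 peaks was among the 27.

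**Figure D5:**
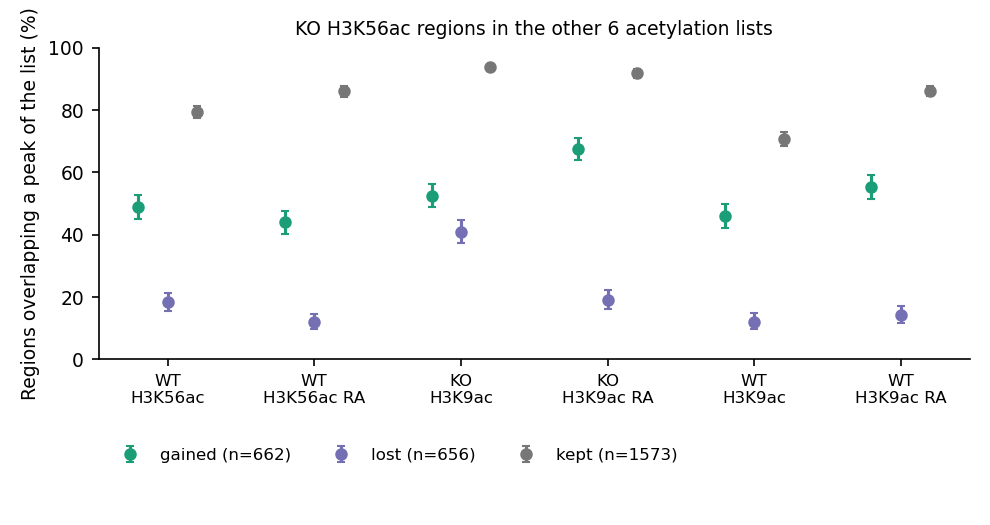
Share (%) of gained, lost and kept KO H3K56ac regions that overlap a peak of each of the other 6 acetylation lists, with 95% Wilson intervals. Gained regions lie above lost regions in every list, nearest in untreated KO H3K9ac (52.6% and 41.0%) and farthest in RA-treated KO H3K9ac (67.7% and 19.1%).

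Chromosome X had more gained than lost regions, whereas the autosomes together did not. It held 67 gained, 20 lost and 161 kept regions, a ratio of gained to lost of 3.35 (2.01 to 5.83), against 0.908 (0.809 to 1.02) on the autosomes. Without regions at Sirt6 peaks, which were fewer on X (10.5% of its regions, 22.8% on autosomes), the ratios were 4.33 (2.44 to 8.18) on X and 2.00 (1.72 to 2.33) on autosomes. Single autosomes reached a like balance by that count, with 50 gained and 9 lost regions on chromosome 4 and 23 and 7 on chromosome 17. Limited to peaks with a −log10 q of at least 10, the X ratio was 1.90, against 2.00 for all regions, so the difference was not seen among the stronger calls. The height of kept regions on X did not follow, with a median log2 ratio of −0.06. In WT cells the H3K56ac ratio was 0.446 (0.306 to 0.639) on X and 0.407 on autosomes, and for KO H3K9ac it was 2.04 on X and 0.645 on autosomes. Without regions at Sirt6 peaks, the KO H3K9ac ratios were 2.68 (1.82 to 4.02) on X and 2.32 (2.06 to 2.62) on autosomes, with overlapping intervals. The smallest ratios were on chromosome 19, with 6 gained and 22 lost regions, and chromosome 11, with 16 and 40. Chromosome 11 also had the largest share of regions at Sirt6 peaks, 45.6%. A neighbouring region within 10 kb was found for 6.65% of gained, 6.40% of lost and 10.6% of kept regions, and for 23.9% of kept regions at Sirt6 peaks.

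Single regions show these classes at full size. Positions are on build mm9, and no gene annotation of that build was used. The gained region with the highest fold enrichment was chr2:98080839-98081179, with a pileup of 35 after RA (scaled pileup 5.12, fold enrichment 16.0) and no call in the untreated KO list. Its scaled pileup was 5.39 in untreated and 4.39 in RA-treated WT cells for H3K56ac, 3.60 and 3.61 in KO cells for H3K9ac, and 6.61 and 5.16 in WT cells for H3K9ac. It was thus missing from 1 list only, and 5 of the 8 gained regions with the highest fold enrichment shared that pattern. The seventh, chrX:49284616-49284892, had a pileup of 27 after RA (scaled pileup 3.95, fold enrichment 14.3) and no call in any other list. None of these 8 gained regions lay at a Sirt6 peak.

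The lost region with the highest fold enrichment was chr4:69778776-69779069, with an untreated pileup of 33 (scaled pileup 5.71, fold enrichment 16.5). Its only other call was untreated KO H3K9ac, at a scaled pileup of 2.36, so neither KO mark was called there after RA. The second, chrX:58581845-58582155, lay at a Sirt6 peak and had a scaled pileup of 4.32 for H3K56ac and 4.02 for H3K9ac in untreated KO cells, and 2.44 for H3K56ac in RA-treated WT cells. All 8 lost regions with the highest fold enrichment had an H3K9ac call in untreated KO cells, 5 of them also after RA, and 3 lay at Sirt6 peaks.

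The 5 kept regions with the highest fold enrichment in the RA list, numbered in that order, all lay at Sirt6 peaks and in all 8 lists. The first, chr13:86453006-86453381, had a scaled pileup of 43.6 before and 37.0 after RA in KO cells (pileups 252 and 253, ratio 0.849, 0.710 to 1.01) and 17.6 and 43.9 in WT cells for H3K56ac. For H3K9ac it had 35.1 and 26.9 in KO cells and 15.5 and 29.0 in WT cells. The interval of its KO H3K56ac ratio included 1, and its fold enrichment was 35.6 before and 35.8 after RA. The fourth, chr11:45538087-45538513, had scaled pileups of 48.6 and 33.9 in KO cells (ratio 0.698, 0.584 to 0.834) and 9.37 and 17.6 in WT cells for H3K56ac. The second, the third and the fifth were also lower in KO cells, with ratios of 0.745 (0.631 to 0.879), 0.649 (0.544 to 0.773) and 0.643 (0.526 to 0.787). In WT cells H3K56ac was higher after RA in the second (15.5 and 34.8), nearly level in the third (25.5 and 26.8) and lower in the fifth (22.5 and 18.7). H3K9ac was lower after RA in KO cells and higher in WT cells in all 5.

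The lowest ratio of KO scaled pileup, RA over untreated, was at chr18:13107546-13108029, from 8.30 to 2.05 (pileups 48 and 14, ratio 0.247, 0.126 to 0.455), at a Sirt6 peak. H3K9ac there was 7.20 before and 2.83 after RA in KO cells, H3K56ac in WT cells was 2.82 and 2.44, and no H3K9ac peak was called in WT cells. The second, chr14:9119116-9119438, lay outside Sirt6 peaks and had scaled pileups of 10.2 and 3.07 for H3K56ac and 8.04 and 3.51 for H3K9ac in KO cells. In WT cells it had 7.44 and 3.25 for H3K56ac and 3.37 and 2.93 for H3K9ac, so here both genotypes had lower values after RA. The highest ratio was at chr6:136951358-136951816, from 1.56 to 3.66 (pileups 9 and 25, ratio 2.35, 1.06 to 5.72). H3K9ac in KO cells was 2.63 and 2.05 there, H3K56ac in WT cells 3.08 and 3.25, and H3K9ac in WT cells 2.59 and 1.76. The 5 regions with the highest ratios began from pileups of 9 to 20, and none lay at a Sirt6 peak.

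Few regions lay near windows whose 5-hydroxymethylcytosine signal differed between untreated KO and WT cells in the authors' deposited table. That table comes from CMS-IP, which enriches bisulfite-converted 5-hydroxymethylcytosine, and lists 2218 windows higher and 1562 lower in KO cells. Within 1000 bp of a higher window lay 2 gained, 2 lost and 1 kept regions. Within 1000 bp of a lower window lay 0 of 662 gained regions, which allows a share of up to 0.453%, 7 lost regions (1.07%, 0.518 to 2.19%) and 15 kept regions (0.954%, 0.579 to 1.57%). Of these 15 kept regions, 9 were at Sirt6 peaks.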

How the data were processed

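Peak lists of 8 acetylation and 3 Sirt6 libraries and 1 CMS-IP table were used, with 1 library per group. Per the submitters' processing notes, BWA 0.5.9, Picard and MACS2 2.0.10 were used on build mm9; what Picard did is not given. MACS2 was run on each library by itself with a q limit of 0.01, a local background over 10000 bp and, for acetylation, no control, per the file headers. The deposited lists give the pileup signal at each summit, a fold enrichment (a ratio over background) and −log10 p and −log10 q. The authors' deposited CMS-IP table gives counts, log2 fold changes and p-values of windows, of which position and direction were used.

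The regions and groupings were chosen with earlier results of these data known. Pileups were divided by filtered tags per the file headers. The filtered tags of the 8 acetylation libraries ranged from 5782181 to 10250030. Local tags follow from fold enrichment, (pileup + 1) over (background + 1), with the worth of 1 tag set so that the lowest implied background equals the genome-wide one. This way of scaling was settled after other unit lengths had been tried on the data. The resulting Poisson p matched the deposited one within 0.05 (log10) for 99.8% of untreated and 99.9% of RA peaks. Named regions are those of highest fold enrichment (8 gained, 8 lost, and 5 kept, the kept ones ranked in the RA list). The 5 largest rises and 5 largest falls in kept regions are also among them. Some of the named regions are printed, besides 1 region of extreme coverage chosen after its values were seen. Gene lists were not applied, since gene positions on mm9 were not used here. Shares carry Wilson 95% intervals, differences Newcombe, ratios exact and medians binomial order-statistic intervals. The limit for a share of 0 is 3 counts. As alternatives, peaks were limited to −log10 q values of 10 or more, overlap to 50% of the shorter peak, and lists to equal length, besides joining within 1000 bp, autosomes only, other depth scaling, leaving out regions in all 8 lists, fold enrichment or local tags in place of pileup, and overlap with CMS-IP windows. Those for strength, kept share, spacing, chromosome X, local tags and the split of kept regions by Sirt6 were added after seeing the data. In simulated data with 2235 and 2239 peaks, all 900 shared regions and all 2028 local tag numbers were recovered. Scripts ran on scipy 1.17.1, pandas 2.3.3, numpy 2.4.6, statsmodels 0.14.6 and Python 3.11.15, with plots from matplotlib 3.10.9.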

Additional observations from a re-analysis of the deposited data

Results flagged for a closer look

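The direction after RA differed between KO and WT cells in 4 results, each from 1 library per group, so that none of the differences was tested. In kept H3K56ac regions at Sirt6 peaks, the median log2 ratio of scaled pileup was −0.43 in KO and 0.32 in WT cells. For H3K9ac these medians were −0.79 and 0.27. The median log2 ratio of fold enrichment in the same H3K56ac regions was −0.09 in KO and −0.10 in WT cells, so that by this measure the genotypes did not go in opposite directions, and for H3K9ac it was −0.17 and 0.02. On chromosome X, the ratio of gained to lost H3K56ac regions was 3.35 in KO and 0.446 in WT cells, and 1.90 in KO cells among peaks with a −log10 q of at least 10. On autosomes, outside Sirt6 peaks, it was 2.00 in KO and 0.398 in WT cells. The untreated WT library was the deepest of the 4 H3K56ac libraries, with 7790807 filtered tags against 6145525 after RA, and the part of depth in the WT ratios was not tested. Fold enrichment is not scaled to depth, which went the other way in KO cells (5782181 and 6837952 filtered tags). The part of depth in the fold enrichment values was not tested either.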

How the results depend on the processing

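Of 81 alternative values, 61 stayed within the interval or the 1.5-fold range of the reported value, 19 moved outside it and 1 reversed. Some of the 61 could not have moved. Gained and lost regions are never in all 8 lists, so leaving such regions out cannot alter their values. Lists of equal length changed little by design, with 658 gained, 656 lost and 1573 kept regions. A −log10 q of at least 10 moved most. It gave a ratio of gained to lost regions of 2.00 (453 and 227), a difference between gained and lost regions of 25.9 points for calls in RA-treated WT cells and of 29.7 for KO H3K9ac after RA, and a lost minus gained difference at Sirt6 peaks of 10.8 points. With it, 61.7% of the lowest quartile of untreated peaks were kept, the X ratio was 1.90, and the difference in local tags between lost and gained regions was 0.0037 per 1000000 tags, against 3.47 for all peaks. The difference in median fold enrichment, gained minus lost, turned from 1.54 to −0.056. The limit was set on peaks before merging, so a region kept among all calls could become gained or lost. The cause of these shifts was not tested. Without regions in all 8 lists, 578 kept regions remained, with medians of −0.11 for log2 scaled pileup, 0.0026 for log2 fold enrichment and 5 bp for length, a difference of −0.58 between kept regions at Sirt6 peaks and elsewhere, and 3.96% of regions within 10 kb of another (8.75% in all). Without scaling to depth the median log2 pileup ratio was 0.23. Local tags in place of pileup gave a Sirt6 difference of −0.25, and fold enrichment one of −0.18, against −0.47. Autosomes alone gave 18.1% kept in the lowest untreated quartile and 6.34% of regions within 10 kb. Overlap in place of 1000 bp left 1 region, in place of 5, at higher CMS-IP windows. No paired analysis was possible because each group holds 1 library. Lost and gained calls rested on median pileups of 14 and 15. At the lower Poisson limit, 206 and 195 of them would have been called in the other library, had its density been the same.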
